A study of Leymus chinensis with 14 samples.

Results

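High salt at normal light was followed in sheepgrass leaves. Sheepgrass (Leymus chinensis) is a perennial of the Eurasian steppe that tolerates saline and alkaline soil. The comparison set 3 leaf libraries labelled normal light, high salt against 3 labelled normal light, ck, the check, and so used 6 of the 14 libraries of the series. It was read across the 12537 loci that had a described plant protein as best hit, among 20567 loci tested. A locus is the sum of all assembled transcripts that share an identifier, such as g13742, and its description is that of the closest database protein. RNA came from leaves of 3-week-old plants on 1/2 MS medium, a plain mineral medium, and every library was of total RNA of the same tissue. The other groups, used here only beside the first, were normal light with low salt (3 libraries), low light with high salt (2 libraries) and low light, ck (3 libraries). The labels give neither the salt concentration nor the light level, name no accession or line of the plant, and do not say whether replicates came from separate plants. P-values therefore measure the spread between these libraries, which may be technical.

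Salt in the medium lowers the water potential around the root and brings sodium and chloride into the leaf. Plants are known to meet the osmotic side with compatible solutes such as glycine betaine, with abscisic acid and the protective proteins it induces, and the ionic side with proton pumps and sodium exporters that keep the ion out of the cytosol. Leaf growth depends on wall synthesis guided by microtubules and on the delivery of wall material by Golgi vesicles, while the chloroplast supplies carbon and reducing power.

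Abundances are the values deposited for each transcript, summed to loci, in a unit that the sources do not name. Their sums per library were 505301, 518213 and 487526 with high salt, against 581690, 539745 and 552556 in the check. The 100 tested loci with the highest mean over all 14 libraries took 26.0 to 32.2% of the sum with high salt. In the check the same loci took 40.1 to 47.1%. Changes are therefore given as deposited and after median-of-ratios scaling. The median log2 change over all tested loci was 0.29 as deposited and 0.03 after scaling. High-salt replicate 3 had a mean correlation of log2 values of 0.879 to the check and 0.869 to the other high-salt libraries. Leaf mesophyll markers (42 loci for Rubisco, its activase and light-harvesting proteins, none at 0 in all 6 libraries) summed to 37151, 44665 and 29224 with high salt and 51833, 39542 and 35130 in the check. Loci with a fungal best hit summed to 425 to 576 with high salt and 176 to 231 in the check, and their part in any plant result was not tested. In a whole leaf, fewer cells of a type and less RNA per cell cannot be told apart.

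High salt raised 480 annotated plant loci and lowered 113 as deposited (limma, Benjamini-Hochberg adjusted p under 0.05), against a background of 3.94% of all tested loci called, 2.98% higher and 0.963% lower. After scaling the counts were 122 higher and 275 lower, beside 0.744% and 2.0% of all tested loci. A set of 122 loci was higher and 113 lower both ways, against 0.744% and 0.963% of all tested loci, 1.71% in all. These shares are the background for the counts of list and family members below. In these 235 loci the 3 high-salt and 3 check libraries did not overlap, and among all tested loci 23.8% were higher and 6.52% lower without overlap. The 122 higher loci had a median log2 change of 1.89, with 53 of them at least 4-fold higher, and the 113 lower loci had a median of -1.51, with 27 at least 4-fold lower. The number of calls rested on single libraries. Without high-salt replicate 1, 2 and 3 the fit called 33, 88 and 616 annotated loci higher and 7, 23 and 138 lower, and without check replicate 1, 2 and 3 it called 9, 363 and 7 higher and 8, 137 and 4 lower. All 235 loci had the same sign and an unadjusted p under 0.05 in each of these 6 fits, and 10 of them were called in all 6. Since the 235 were chosen by adjusted p-values from these same libraries, the agreement in sign and unadjusted p was largely fixed beforehand. Of the 149 loci named here by identifier, 65 follow a rule on the size of the change and on membership of gene lists, and 84 were chosen after their values were seen. A few further loci are mentioned without identifier and are outside these counts.

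**Figure D1:**
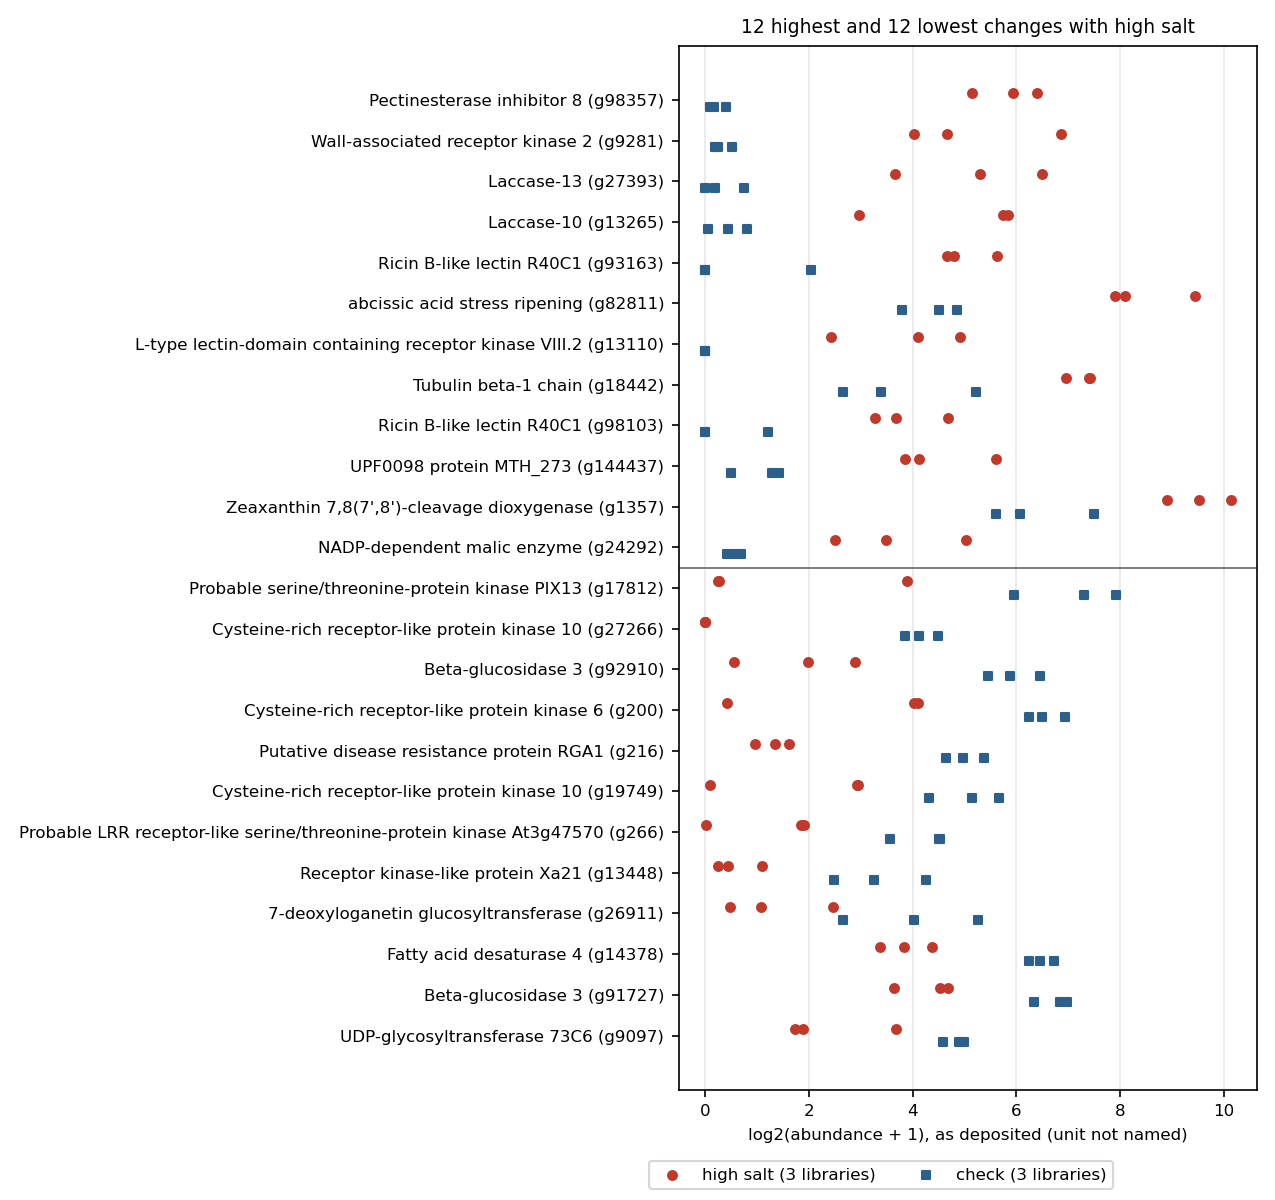
Log2(abundance + 1) as deposited for the 12 annotated loci with the highest and the 12 with the lowest log2 change among those called both ways, 1 point per library (red circles high salt, blue squares check). In each row the circles and squares do not overlap, and equal values, such as the zeros of g27266 with high salt, lie on top of each other.

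Tubulin is the protein of microtubules, whose cortical arrays guide cellulose deposition. All 13 tested alpha- and beta-tubulin chains had a positive log2 change, with a median of 1.77 against 0.29 over all tested loci, and 9 were called higher, 8 of them also after scaling. Of all tested loci 2.98% were called higher as deposited and 0.744% also after scaling. Tubulin beta-5 g13742 stood at 117, 91.2 and 153 with high salt, against 17.5, 13.2 and 9.98 in the check (log2 change 3.06, SE 0.32, adjusted p = 0.0036, and 0.0032 after scaling). Another beta-5 locus, g80505, stood at 76.5, 126 and 118 with high salt and 22.4, 13.7 and 14.5 in the check (log2 change 2.59, SE 0.30, adjusted p = 0.0062, and 0.011 after scaling). Every high-salt library lay well above every check library for both loci. Tubulin beta-1 g18442 had the largest log2 change of the family, 3.50 (adjusted p = 0.013), with 167, 123 and 171 under high salt and 9.47, 36.6 and 5.35 in the check, whose replicate 2 was the highest. The other beta chains called were g25775 (log2 change 2.39), g20671 (1.54) and g99341 (1.33), the last only as deposited (adjusted p = 0.098 after scaling). The 3 alpha chains g86493, g82375 and g81447 had log2 changes of 2.27, 1.92 and 1.77 (adjusted p = 0.013, 0.0086 and 0.0093). Since near-identical tubulin copies can share reads, the split between these loci is uncertain. Tubulin-folding cofactor B (g92558), which helps to fold alpha-tubulin, was higher too, at 5.36, 5.99 and 6.90 with high salt and 1.02, 1.26 and 2.73 in the check (log2 change 1.45, SE 0.29, adjusted p = 0.028, and 0.042 after scaling). Actin, the other cytoskeletal polymer, was mixed. Actin-3 g19127 stood at 151, 141 and 202 with high salt and 60.2, 104 and 72.8 in the check and was called only as deposited (adjusted p = 0.041, and 0.12 after scaling), as was the actin-1 locus g27051 (log2 change 1.04, adjusted p = 0.039 and 0.18). Another actin-1 locus, g14237, stood at 549.6, 711 and 729 with high salt, below 892, 1249 and 1264 in the check, and was called lower only after scaling (log2 change -0.77, adjusted p = 0.092, and 0.036 after scaling). Of the 12 loci called as deposited, 8, 8 and 10 were called without high-salt replicate 1, 2 and 3, and 5, 10 and 4 without check replicate 1, 2 and 3, at adjusted p-values up to 0.15.

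**Figure D2:**
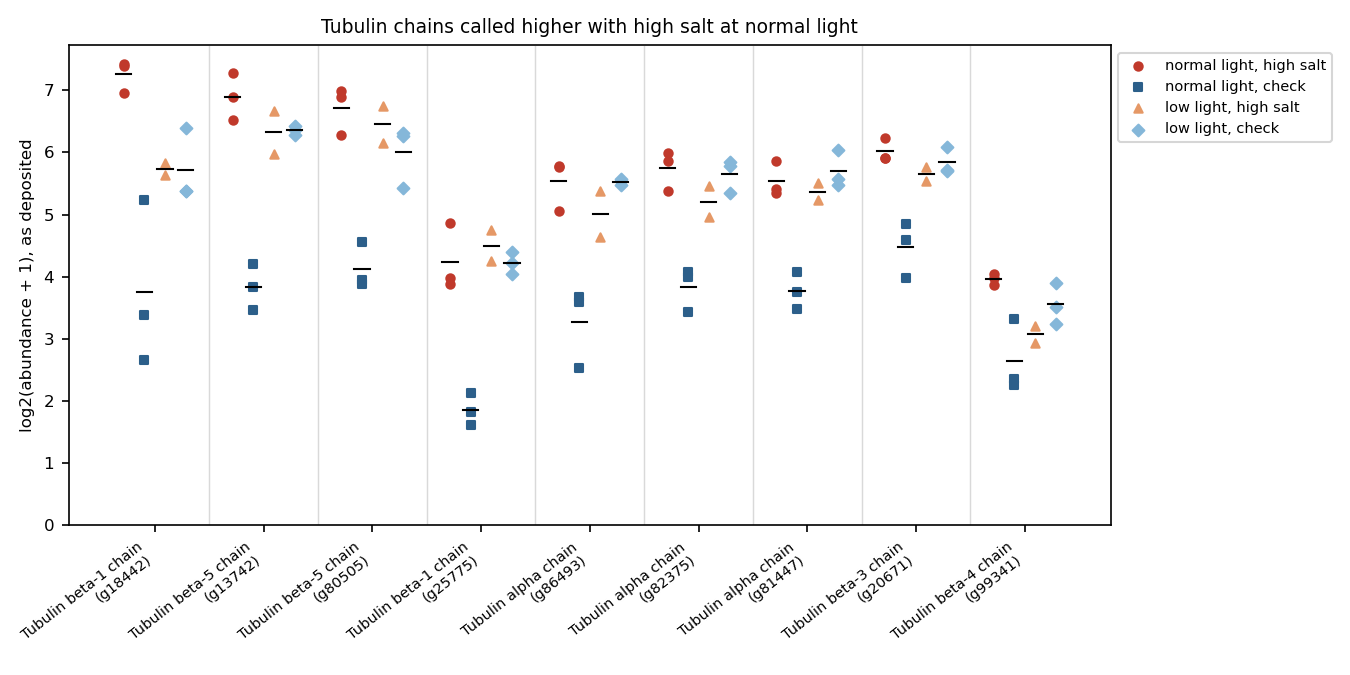
Log2(abundance + 1) as deposited for the 9 tubulin chains called higher with high salt at normal light, with 1 point per library and a bar at each group mean, for both treatments at both light levels. The normal-light check lies below the normal-light high-salt libraries in every chain, and in every chain but g99341 each low-light library lies above each normal-light check library.

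The low-light libraries show the tubulins in leaves that the comparison at normal light did not use. There g13742 stood at 101 and 61.8 with high salt, against 81.6, 76.4 and 85.04 in the low-light check, and g86493 at 40.6 and 23.9 with high salt, against 46.3, 43.3 and 45.4 in the low-light check. Both low-light groups lay at a level that the normal-light check did not reach. The median log2 change of the 13 chains with high salt was -0.04 at low light. The light by salt interaction, the change at normal light minus that at low light, was called for 4 of the 13 chains, beside 0.034% of all tested loci called in that direction. The interaction shares the normal-light libraries with the calls above and is not independent of them. It was 3.10 for g13742, 2.79 for g86493, 2.37 for g82375 and 2.10 for g81447 (log2, adjusted p = 0.022, 0.045, 0.03 and 0.041). After scaling, g86493 was no longer called (adjusted p = 0.051), and the other chains were. Over 21 alternative settings, including each of the 14 libraries left out, g13742 was called in 14 (adjusted p 0.0085 to 0.1), g82375 in 11 (0.02 to 0.13), g81447 in 9 (0.019 to 0.16) and g86493 in 5 (0.024 to 0.17).

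Several loci for wall precursors and their assembly rose as well. UDP-arabinopyranose mutase 3 (g16052), which supplies the arabinofuranose of grass arabinoxylan, stood at 29.5, 32.4 and 23.2 with high salt and 8.96, 11.2 and 8.48 in the check (log2 change 1.47, SE 0.19, adjusted p = 0.0082, and 0.023 after scaling). The trifunctional UDP-rhamnose synthase g17425, which feeds pectin synthesis, stood at 17.8, 10.8 and 11.2 with high salt and 4.38, 6.02 and 3.70 in the check (log2 change 1.31, SE 0.23, adjusted p = 0.022, and 0.04 after scaling). In both loci the 3 high-salt libraries lay above the 3 check libraries. A KOBITO 1-type glycosyltransferase (g22267), required for cellulose deposition in Arabidopsis, had a log2 change of 1.33 (adjusted p = 0.023). COBRA-like protein 3 (g2188), of a family that orients cellulose, stood at 60.7, 35.6 and 19.4 with high salt and 12.98, 6.63 and 3.49 in the check, and was called as deposited only (adjusted p = 0.043, and 0.085 after scaling). Glucomannan 4-beta-mannosyltransferase 1 (g19771) stood at 4.43, 2.36 and 9.14 with high salt and 0.129, 0 and 0 in the check (log2 change 2.45, SE 0.49, adjusted p = 0.028, and 0.027 after scaling), a low level in every library. Glucan endo-1,3-beta-glucosidase 14 (g18083), of the enzymes that cleave callose, stood at 72.4, 25.2 and 51.5 with high salt and 7.56, 12.3 and 7.29 in the check (log2 change 2.25, SE 0.42, adjusted p = 0.023, and 0.03 after scaling). The list of cellulose and mixed-linkage glucan synthases itself, 32 loci, had 1 call as deposited and none after scaling, with a median log2 change of 0.26, below the 0.29 of all tested loci. Without high-salt replicate 3, 8 of the 32 were called higher. Leaving out high-salt replicate 1, 2 and 3 kept 1, 4 and 6 of the 6 called loci, and leaving out check replicate 1, 2 and 3 kept 1, 5 and 0, with adjusted p-values up to 0.14.

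The highest log2 change among the 122 higher loci was that of pectinesterase inhibitor 8 (g98357), of a family that blocks the removal of methyl groups from pectin. It stood at 83.2, 60.1 and 34.4 with high salt and at 0.122, 0.0713 and 0.318 in the check (log2 change 5.60, SE 0.62, adjusted p = 0.0061, and 0.0032 after scaling). No check library came near the lowest high-salt one. At low light g98357 stood at 11.2 and 23.7 with high salt and 0.933, 0.274 and 1.23 in the check, a log2 change of 3.30 that was not called (adjusted p = 0.068). Wall-associated kinases, which bind pectin on the cell surface, went both ways. Among 79 loci 3 were higher and 2 lower both ways, beside 0.744% and 0.963% of all tested loci. The kinases g9281, g264 and g87879 rose, with log2 changes of 4.87, 2.51 and 2.71 (adjusted p = 0.017, 0.029 and 0.027). At 34.6% identity to the named protein, the name of g9281 is uncertain. The kinase g264 stood at 89.1, 33.4 and 71.2 with high salt and 11.4, 9.16 and 8.69 in the check. The kinases g18543 and g21776 fell, g21776 to 2.44, 3.40 and 2.98 with high salt, against 9.35, 8.13 and 8.59 in the check (log2 change -1.30, adjusted p = 0.036), and g18543 with a log2 change of -2.23 (adjusted p = 0.047). Without high-salt replicate 1, 2 and 3, 2, 4 and 6 of the 6 called loci passed, and without check replicate 1, 2 and 3, 1, 3 and 1 did, the highest adjusted p being 0.16.

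Lignin, the phenolic polymer that stiffens walls, is built through the phenylpropanoid pathway. Of 78 loci of lignin and flavonoid synthesis, a list without the laccases, 6 were called higher as deposited, 3 of them also after scaling. The lower calls numbered 2 as deposited and 3 after scaling. The median log2 change of that list was 0.25 as deposited and -0.08 after scaling, near the 0.29 and 0.03 of all tested loci. Of 9 laccases, which couple lignin units, 3 were higher both ways, beside 0.744% of all tested loci. A positive log2 change was seen in 8 of the 9, with a median of 2.04. Laccase-13 g27393 stood at 89.7, 38.6 and 11.6 with high salt and 0.15, 0 and 0.673 in the check (log2 change 4.84, SE 0.82, adjusted p = 0.02, and 0.017 after scaling). Laccase-10 g13265 stood at 52.6, 56.03 and 6.78 with high salt and 0.757, 0.042 and 0.366 in the check (log2 change 4.41, SE 0.88, adjusted p = 0.028, and 0.03 after scaling). Putative laccase-11 (g25035) was listed at 0 in the 3 check libraries and stood at 2.63, 7.72 and 1.22 with high salt (adjusted p = 0.028). Replicate 3 was the lowest high-salt library in each of the 3 loci, and over the 9 laccases it summed to 83.2, beside 345.5 and 266.1 in the other high-salt libraries and 92.2, 71.0 and 84.4 in the check. Without high-salt replicate 3, 5 of the 9 were called higher. Upstream, trans-cinnamate 4-monooxygenase (g16191), which hydroxylates cinnamic acid, stood at 22.5, 27 and 16.6 with high salt and 6.15, 5.54 and 3.87 in the check (log2 change 1.89, SE 0.34, adjusted p = 0.022, and 0.036 after scaling). Hydroxycinnamoyltransferase 2 (g2448), of the enzymes that route phenylpropanoids towards lignin units, stood at 66.4, 41.5 and 28.5 with high salt and 6.44, 11.8 and 6.28 in the check (log2 change 2.31, SE 0.34, adjusted p = 0.014, and 0.018 after scaling). In the plastid, 3-phosphoshikimate 1-carboxyvinyltransferase (g28052), of the shikimate pathway to aromatic amino acids, stood at 95.3, 108 and 87.98 with high salt and 26.5, 48.3 and 34.01 in the check (log2 change 1.43, SE 0.25, adjusted p = 0.022, and 0.046 after scaling). The libraries did not overlap in these 3 loci. Cinnamoyl-CoA reductases, which make the aldehydes of lignin units, split among 16 loci. The locus g13853 rose to 6.35, 12.2 and 2.15 with high salt, against 0.529, 0.477 and 0.0155 in the check (adjusted p = 0.029), while g83637 fell to 6.98, 7.18 and 7.44, against 19.4, 19.3 and 21.4 (adjusted p = 0.029). The locus g91029 fell beside it (log2 change -1.26, adjusted p = 0.036), and g83637 and g91029 were 47.5% and 48.6% identical to the named protein, against 69.6% for g13853. The 9 called loci numbered 1, 2 and 9 without high-salt replicate 1, 2 and 3, and 0, 8 and 0 without check replicate 1, 2 and 3, with adjusted p-values up to 0.12. Vascular markers (12 loci, none called) summed to 491, 347 and 107 with high salt and 174, 84.6 and 105 in the check, and their part in these results was not tested.

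Lipid transfer proteins, which carry lipids to the cuticle, shifted as a list of 13 loci with a median log2 change of 1.77, but only non-specific lipid-transfer protein 2-like (g138108) was called. It stood at 6.70, 2.93 and 3.28 with high salt and 0.121, 0 and 0.0878 in the check (log2 change 2.24, SE 0.33, adjusted p = 0.013, and 0.011 after scaling). Lipid-transfer protein 4.1 (g25647) stood at 2873, 1251 and 156 with high salt and 120.1, 33.3 and 17.9 in the check and was not called (log2 change 4.27, SE 1.19, adjusted p = 0.065). Its high-salt replicate 3 lay close to check replicate 1, and without that high-salt library g25647 had an adjusted p of 0.026 and 6 of the 13 loci were called higher. Epidermis and cuticle markers, of which these proteins are a part, summed over 29 loci to 4365, 3981 and 1045 with high salt and 1078, 622 and 625 in the check, with 1 of 16 tested loci called. CASP-like proteins, relatives of those that lay down the Casparian strip in roots, had 5 of 15 loci called higher as deposited and 2 after scaling. Of all tested loci the shares were 2.98% and 0.744%. CASP-like 2U2 (g15739) stood at 47.8, 25.7 and 15.2 with high salt and 5.32, 6.49 and 4.60 in the check (log2 change 2.10, SE 0.35, adjusted p = 0.018, and 0.03 after scaling). CASP-like 4B4 (g22897) stood at 10.04, 6.09 and 6.02 with high salt and 0.333, 1.52 and 0.849 in the check (log2 change 2.15, SE 0.31, adjusted p = 0.013, and 0.011 after scaling). Both loci separated the groups. The root marker list, to which the CASP-like loci belong, summed to 325, 330 and 236 with high salt and 166, 208 and 173 in the check over 24 loci, and whether root tissue contributed was not tested. Of the 3 loci called as deposited, 3, 3 and 3 were called without high-salt replicate 1, 2 and 3, and 0, 3 and 0 without check replicate 1, 2 and 3, at adjusted p-values up to 0.084.

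Several proteins known to protect dehydrating cells rose with high salt. An abscisic acid stress ripening (ASR) protein, g82811, of small hydrophilic proteins induced by drought and abscisic acid, stood at 698, 272 and 239.5 with high salt and 27.9, 21.8 and 12.8 in the check (log2 change 4.10, SE 0.74, adjusted p = 0.022, and 0.027 after scaling). Its lowest high-salt library was far above its highest check library. Of 4 tested loci with that description, g82811 was the only one called both ways. A group 3 late embryogenesis abundant (LEA) protein, g17554, stood at 852, 546 and 740.3 with high salt and 72.5, 144 and 218 in the check (log2 change 2.40, SE 0.49, adjusted p = 0.029, and 0.036 after scaling). Dehydrin DHN3 g97223 stood at 3.68, 4.67 and 17.5 with high salt and 0, 0.454 and 0.383 in the check (log2 change 2.64, SE 0.57, adjusted p = 0.036, and 0.038 after scaling). These were the 2 called loci among 11 LEA and dehydrin loci, all of which had a positive log2 change, with a median of 2.16. Without high-salt replicate 3 the median was 1.23 and 1 locus was called. Another DHN3 locus, g99978, stood at 58.5, 77.8 and 508 with high salt and 5.75, 8.87 and 6.79 in the check without passing the test (adjusted p = 0.06), and high-salt replicate 3 was far above the other libraries. A freezing-induced protein 2 locus (g88254), whose best hit is from Leymus itself, stood at 14.2, 7.77 and 11.8 with high salt and 0.234, 0.832 and 0.235 in the check (log2 change 3.08, SE 0.44, adjusted p = 0.013, and 0.011 after scaling). EARLY RESPONSIVE TO DEHYDRATION 15, a small protein quickly induced by drought in Arabidopsis, had 3 of 4 loci called higher as deposited and 2 after scaling. Its locus g169899 stood at 77.2, 54.4 and 63.6 with high salt and 21.8, 18.8 and 18.8 in the check (log2 change 1.66, SE 0.30, adjusted p = 0.022, and 0.042 after scaling). The locus g202622 had a log2 change of 1.53 (adjusted p = 0.024, and 0.048 after scaling). Barwin (g94414), a carbohydrate-binding defence protein first found in barley seed, stood at 263, 399 and 295 with high salt and 51.9, 56.4 and 63.4 in the check (log2 change 2.44, SE 0.44, adjusted p = 0.022, and 0.04 after scaling). All 3 high-salt values of g94414 exceeded the check by several times. A locus named for a microbial UPF0098 protein (g144437, best hit in Aegilops) had a log2 change of 3.45 (adjusted p = 0.027). Other loci with stress-related names were lower both ways. They include a salt response protein and C2-domain abscisic acid-related protein 5, with log2 changes of -1.1 and -1.84 (adjusted p = 0.049 for each). Leaving out high-salt replicate 1, 2 and 3 kept 1, 3 and 7 of the 8 loci called higher, and leaving out check replicate 1, 2 and 3 kept 0, 7 and 0, with adjusted p-values up to 0.14.

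Lectins, which bind sugars, were among the highest log2 changes. Ricin B-like lectin R40C1, of a family known in rice to respond to abscisic acid and salt, had 2 of 6 loci called. The locus g93163 stood at 24.3, 48.2 and 26.9 with high salt and at 0, 3.11 and 0 in the check (log2 change 4.35, SE 0.85, adjusted p = 0.027, and 0.03 after scaling). The locus g98103 stood at 8.66, 24.7 and 11.8 with high salt and 0, 1.31 and 0 in the check (log2 change 3.47, SE 0.75, adjusted p = 0.035, and 0.038 after scaling). Check replicates 1 and 3 were listed at 0 in both loci, which were 33.8% and 30.5% identical to the named protein and may share reads. A locus named for an L-type lectin receptor kinase at 28.0% identity (g13110) stood at 29.1, 4.38 and 16.2 with high salt. It was listed at 0 in the 3 check libraries (adjusted p = 0.042, and 0.046 after scaling). It was called in 0 of the 6 fits that left out 1 of these libraries. Lectin receptor kinases as a list of 164 loci went both ways, with 2 higher and 3 lower both ways, beside 0.744% and 0.963% of all tested loci. Their median log2 change was -0.05, below the 0.29 of all tested loci. Without high-salt replicate 1, 2 and 3, 0, 0 and 2 of the 3 called loci passed, and without check replicate 1, 2 and 3, 0, 2 and 0 did, the highest adjusted p being 0.14.

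Carotenoid cleavage dioxygenases are the family that makes abscisic acid and other apocarotenoids. Both loci named as zeaxanthin cleavage dioxygenases were higher. Of 6 loci named as NCED enzymes, which form the precursor of abscisic acid, 5 had a positive log2 change, 1 was called higher as deposited and 0 after scaling. The abscisic acid list of 25 loci had that 1 call and a median log2 change of -0.04, against 0.29 over all tested loci. The locus g1357, 30.2% identical to a zeaxanthin cleavage dioxygenase, stood at 729.6, 478 and 1122 with high salt and 65.9, 179 and 47.5 in the check (log2 change 3.13, SE 0.62, adjusted p = 0.027, and 0.038 after scaling). Its relative g84230 stood at 69.1, 45.1 and 109 with high salt and 7.25, 17.2 and 4.81 in the check (log2 change 2.89, SE 0.57, adjusted p = 0.028, and 0.038 after scaling). Check replicate 2 was the highest check library in both, as it was in g79474, named for the abscisic acid enzyme NCED3 at 30.4% identity, which stood at 78.9, 51.8 and 126 with high salt and 7.95, 35.2 and 6.72 in the check and was called only as deposited (adjusted p = 0.044, and 0.074 after scaling). The NCED2-type locus g20126 ran alongside, at 724, 294 and 1230.0 with high salt and 74.7, 250.0 and 46.5 in the check, and was not called (adjusted p = 0.075). At such low identities the loci's products cannot be told from the names, and similar copies may share reads. Protein phosphatases 2C, some of which inhibit abscisic acid signalling, had 2 of 61 loci higher both ways, beside 0.744% of all tested loci. Phosphatase 37 (g26039) stood at 1.57, 2.54 and 5.11 with high salt and 0.103, 0.145 and 0.298 in the check (log2 change 1.70, SE 0.38, adjusted p = 0.037, and 0.038 after scaling). Phosphatase 51 (g137880) had a log2 change of 1.38 (adjusted p = 0.028). At low light g137880 stood at 2.76 and 1.39 with high salt and 0, 0 and 0.261 in the check, and g79474 at 284 and 185 with high salt and 7.74, 22.9 and 7.26 in the check. That change was called for g79474 (log2 4.26, adjusted p = 0.016). The 5 called loci numbered 0, 1 and 3 without high-salt replicate 1, 2 and 3, and 0, 4 and 0 without check replicate 1, 2 and 3, with adjusted p-values up to 0.16.

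Glycine betaine, a compatible solute of many grasses, is made from choline, whose head group derives from serine. Some enzymes of serine, choline and betaine synthesis were higher. D-3-phosphoglycerate dehydrogenase 2 (g14238), which opens plastid serine synthesis, stood at 86.01, 118 and 100.3 with high salt and 36.5, 37.7 and 22.5 in the check (log2 change 1.65, SE 0.27, adjusted p = 0.018, and 0.04 after scaling). Serine decarboxylase 1 (g8970), which makes ethanolamine from serine, stood at 6.34, 8.24 and 2.99 with high salt and 0.223, 0.658 and 0.217 in the check (log2 change 2.26, SE 0.40, adjusted p = 0.022, and 0.022 after scaling). The groups did not overlap at either step. Phosphoethanolamine N-methyltransferase 1 (g25654), on the way to choline, stood at 309, 324 and 466 with high salt and 124, 160.4 and 169 in the check but did not pass the test (log2 change 1.26, SE 0.51, adjusted p = 0.17). Betaine aldehyde dehydrogenase 2, the last step, had 2 loci called, g25145 at 81.01, 64.1 and 99.3 with high salt and 16.4, 19.7 and 26.1 in the check (log2 change 1.93, SE 0.31, adjusted p = 0.017, and 0.021 after scaling). The locus g15846 stood at 363, 426 and 358 with high salt and 139, 119.8 and 202 in the check, and was called only as deposited (adjusted p = 0.022, and 0.061 after scaling). All of these loci were higher in 3 of 3 high-salt libraries than in any check library. Among further osmolyte loci, a raffinose synthase-type galactosyltransferase (g20667) stood at 553, 530.4 and 1236 with high salt and 203, 258 and 249 in the check and was called as deposited (adjusted p = 0.026, and 0.054 after scaling). Delta-1-pyrroline-5-carboxylate synthase 2 (g16662), of proline synthesis, stood at 81.3, 15.8 and 342 with high salt and 7.69, 9.35 and 7.06 in the check and was not called (adjusted p = 0.068), with a wide spread among the high-salt libraries. The list of 40 osmolyte loci had 3 called higher and a median log2 change of 0.25, close to the 0.29 of all tested loci. Of the 5 loci called as deposited, 1, 2 and 5 were called without high-salt replicate 1, 2 and 3, and 0, 5 and 0 without check replicate 1, 2 and 3, at adjusted p-values up to 0.1.

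Of the sodium and potassium transport loci 2.27% were called as deposited, and of the proton pump loci 3.57%, beside 3.94% of all tested loci. After scaling, 2.0% of all tested loci were called lower. Among 44 sodium and potassium transport loci, none was called higher and 1 lower as deposited (4 after scaling), a decrease of K(+) efflux antiporter 3 (g13912), which exchanges potassium for protons at the thylakoid in Arabidopsis. It stood at 52.3, 59.8 and 62.8 with high salt and 92.5, 87.3 and 115 in the check (log2 change -0.73, SE 0.17, adjusted p = 0.043, and 0.016 after scaling), and the groups did not overlap. Its relative g8669 stood at 28.1, 19.1 and 33.9 with high salt and 44.9, 46.7 and 64.3 in the check and passed only after scaling (adjusted p = 0.073 and 0.025). Sodium/hydrogen exchanger 7 (g8789), of the SOS1 type that exports sodium in Arabidopsis, stood at 84.3, 46.4 and 38.7 with high salt and 28.7, 44.4 and 33.04 in the check, and the groups overlapped (log2 change 0.60, SE 0.48, adjusted p = 0.48). Of 28 proton pump loci, 1 plasma membrane ATPase locus of low abundance (g21085) was called, as deposited only, at 5.36, 4.33 and 3.70 with high salt and 1.00, 1.52 and 0.921 in the check (adjusted p = 0.043, and 0.07 after scaling). A more abundant plasma membrane ATPase, g9549, stood at 163, 119.7 and 213 with high salt and 197, 279.6 and 143 in the check (adjusted p = 0.6), overlapping. The vacuolar ATPase subunit B1 (g19046) stood at 229.8, 239.9 and 407 with high salt and 171, 187 and 185 in the check. Subunit G1 (g26073) stood at 262, 211 and 275 with high salt and 148, 134 and 164 in the check. The groups did not overlap in either subunit, and neither was called (adjusted p = 0.15 and 0.058). Other carriers also changed. ABC transporter G family member 42, a full-size pump of the pleiotropic drug resistance type, had all 6 loci positive and 4 called, 3 of them both ways. The locus g18364 stood at 13.9, 18.1 and 9.34 with high salt and 1.96, 3.91 and 1.56 in the check (log2 change 2.10, SE 0.35, adjusted p = 0.02, and 0.027 after scaling). The locus g79908 had nearly the same values and may share its reads. The locus g79382 had a log2 change of 1.90 (adjusted p = 0.022). In the NRT1/PTR family of nitrate and peptide carriers, with 66 loci, family 3.1 member g13076 rose to 4.08, 14.7 and 19.1 with high salt, against 0.761, 1.31 and 0.472 in the check (log2 change 2.69, SE 0.54, adjusted p = 0.028, and 0.032 after scaling). Family 5.2 member g13376 fell to 16.1, 13.9 and 6.85 with high salt, against 35.5, 62.5 and 30.8 (log2 change -1.74, SE 0.37, adjusted p = 0.033, and 0.021 after scaling). Leaving out high-salt replicate 1, 2 and 3 kept 1, 0 and 6 of the 7 called loci, and leaving out check replicate 1, 2 and 3 kept 0, 4 and 0, with adjusted p-values up to 0.15.

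In central carbon metabolism, some glycolytic loci rose, though glycolysis was not counted as a list. A phosphoglycerate mutase (g26785) stood at 6.05, 5.42 and 12.5 with high salt and 0.0838, 0.206 and 0.0805 in the check (log2 change 2.92, SE 0.30, adjusted p = 0.0036, and 0.0025 after scaling). It was called in all 6 fits that left out 1 library. Pyrophosphate-fructose 6-phosphate 1-phosphotransferase, which runs a glycolytic step on pyrophosphate in place of ATP, was called higher in the 1 tested locus of its beta subunit and in 1 of 3 of its alpha subunit. The beta subunit locus g23045 stood at 38.9, 39.4 and 36.9 with high salt and 15.03, 16.9 and 15.6 in the check (log2 change 1.23, SE 0.16, adjusted p = 0.0085, and 0.023 after scaling). The 3 libraries of each group lay close together. Its alpha subunit locus g18936 stood at 14.4, 12.8 and 6.60 with high salt and 2.25, 3.64 and 1.39 in the check (log2 change 1.83, SE 0.36, adjusted p = 0.027, and 0.046 after scaling). At low light g23045 stood at 31.9 and 29.6 with high salt and 38.2, 44.05 and 36.6 in the check, and its interaction was 1.58 (log2, adjusted p = 0.022, 0.062 after scaling). It was called in 10 of 21 alternative settings (adjusted p 0.014 to 0.13). NADP-dependent malic enzyme (g24292), which makes pyruvate and NADPH from malate, stood at 10.3, 4.70 and 31.6 with high salt and 0.483, 0.611 and 0.34 in the check (log2 change 3.12, SE 0.48, adjusted p = 0.016, and 0.014 after scaling). A pair of loci for starch-degrading enzymes went the other way. Beta-amylase 3 (g24100), the main maltose-forming amylase of Arabidopsis leaves, fell to 20.2, 17.3 and 46.9 with high salt, against 59.4, 135 and 207 in the check (log2 change -2.17, SE 0.54, adjusted p = 0.046, and 0.031 after scaling). Alpha-amylase type B (g23732) stood at 0, 0.0495 and 0.0249 with high salt and 11.9, 3.07 and 7.93 in the check (log2 change -2.92, SE 0.37, adjusted p = 0.0082, and 0.0058 after scaling). Also lower both ways were a soluble inorganic pyrophosphatase, a plastid pyruvate dehydrogenase E1 alpha subunit, a putative glucose-6-phosphate 1-epimerase and a glyoxysomal malate dehydrogenase. Their log2 changes were -1.35, -0.96, -0.935 and -1.03 (adjusted p = 0.029, 0.044, 0.043 and 0.043). Without high-salt replicate 1, 2 and 3, 4, 4 and 6 of the 6 called loci given with an identifier passed. Without check replicate 1, 2 and 3, 2, 5 and 2 did, the highest adjusted p being 0.16.

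Of 121 tested cytosolic ribosomal proteins, 51 were called higher as deposited and 5 also after scaling. The median log2 change was 1.22, or 0.93 above the median of all tested loci, and 0.81 above it after scaling. The 5 were L13-1 g27922, L34 g147031, S15a-1 g88679, S23 g21323 and S4 g19587. Ribosomal protein S23 g21323 stood at 235, 232 and 232 with high salt and 61.2, 83.8 and 71.9 in the check (log2 change 1.69, SE 0.30, adjusted p = 0.022, and 0.041 after scaling). L34 g147031 stood at 136, 103 and 127 with high salt and 25.7, 33.3 and 27.6 in the check (log2 change 2.04, SE 0.37, adjusted p = 0.022, and 0.036 after scaling). The groups did not overlap in either. S4 g19587, S15a-1 g88679 and L13-1 g27922 had log2 changes of 1.56, 2.10 and 1.76 (adjusted p = 0.022, 0.022 and 0.015). An mRNA turnover protein 4 homolog (g86946), a ribosome assembly factor in yeast, rose to 120.3, 62.01 and 154 with high salt, against 19.98, 34.3 and 29.9 in the check (log2 change 1.90, SE 0.34, adjusted p = 0.022, and 0.025 after scaling). The ribosomal count rested on single libraries: without high-salt replicate 1, 2 and 3 it was 0, 5 and 21, and without check replicate 1, 2 and 3 it was 0, 25 and 0. The 6 called loci numbered 0, 4 and 6 without high-salt replicate 1, 2 and 3, and 0, 6 and 0 without check replicate 1, 2 and 3, with adjusted p-values up to 0.095. At low light L34 g147031 stood at 222 and 159 with high salt and 103, 242 and 229.5 in the check, and the list's median log2 change there was 0.09.

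Among the loci called higher were some of the secretory route, which were picked after their values were seen and were not counted as a list. Ras-related protein RABA2a (g25276), a small GTPase of the trans-Golgi network, stood at 26.9, 19.98 and 10.03 with high salt and 4.21, 3.38 and 3.39 in the check (log2 change 2.00, SE 0.35, adjusted p = 0.022, and 0.034 after scaling). Ras-related protein RGP2 (g24319) stood at 52.8, 45.3 and 21.7 with high salt and 10.5, 9.92 and 10.5 in the check (log2 change 1.76, SE 0.30, adjusted p = 0.02, and 0.036 after scaling). Replicate 3 was the lowest high-salt library in both. Syntaxin-61 (g24449), a fusion protein of the same compartment, stood at 20.1, 17.1 and 17.1 with high salt and 7.17, 6.99 and 8.56 in the check (log2 change 1.16, SE 0.23, adjusted p = 0.027, and 0.048 after scaling). Transmembrane 9 superfamily proteins of the Golgi had 4 of 7 loci called higher as deposited and 2 after scaling, g23577 with a log2 change of 1.07 (adjusted p = 0.022) and g13615 with 1.09 (adjusted p = 0.017). SEC62 (g15713), of protein import into the endoplasmic reticulum, stood at 50.4, 46.3 and 51.7 with high salt and 22.6, 25.1 and 28.1 in the check (log2 change 0.94, SE 0.17, adjusted p = 0.023, and 0.048 after scaling). Its change was the smallest of the 122 higher loci, and the groups did not overlap. Of the 6 loci called as deposited, 1, 1 and 6 were called without high-salt replicate 1, 2 and 3, and 0, 6 and 0 without check replicate 1, 2 and 3, at adjusted p-values up to 0.1.

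Of 1192 tested loci named as chloroplastic, 25 were called higher and 29 lower as deposited, and 7 and 29 both ways, beside 0.744% and 0.963% of all tested loci. Higher ones included loci named for a transketolase and an ALBINO3-like protein, with log2 changes of 1.62 and 1.60 (adjusted p = 0.023 and 0.022). The list of Rubisco and the Calvin cycle, 32 loci, had 1 locus higher and 1 lower both ways. The lower ones described here include proteins of the stroma, the thylakoid and pigment synthesis. Phosphoribulokinase (g24751), which regenerates the acceptor of carbon dioxide in the Calvin cycle, stood at 973, 1083 and 1502 with high salt and 2985, 3111 and 2768 in the check (log2 change -1.34, SE 0.33, adjusted p = 0.047, and 0.029 after scaling). Oxygen-evolving enhancer protein 3, a lumen subunit of photosystem II, had 2 of 8 loci called, g24240 at 1713, 1555 and 1255 with high salt and 3275, 2823 and 2656 in the check (log2 change -0.96, SE 0.23, adjusted p = 0.044, and 0.035 after scaling). Its relative g99724 stood at 66.2, 68.9 and 79.6 with high salt and 158, 128 and 146 in the check (log2 change -1.0, SE 0.24, adjusted p = 0.044, and 0.031 after scaling). The high-salt libraries lay below every check library in all 3 loci. PGR5-like protein 1A (g17884), of cyclic electron flow, fell to 201, 234 and 200.1 with high salt, against 377, 487 and 345 in the check (log2 change -0.91, SE 0.22, adjusted p = 0.044, and 0.023 after scaling). Ferredoxin-NADP reductase g18235, which ends linear electron flow, had a log2 change of -1.05 (adjusted p = 0.03), THYLAKOID FORMATION1 g22967 one of -0.90 (0.042) and the kinase-like ABC1K3 locus g94284 one of -0.94 (0.026). Fatty acid desaturase 4 (g14378), which in Arabidopsis desaturates thylakoid phosphatidylglycerol, had the largest decrease among the lower loci named as chloroplastic, at 9.34, 13.3 and 19.7 with high salt and 87.2, 104 and 74.5 in the check (log2 change -2.62, SE 0.48, adjusted p = 0.023, and 0.016 after scaling). The sigma factor sigE of the plastid RNA polymerase had 2 of its 3 loci called, g27029 at 10.7, 19.6 and 38.4 with high salt and 82.5, 81.5 and 126 in the check (log2 change -2.18, SE 0.45, adjusted p = 0.03, and 0.022 after scaling). The other, g134406, stood at 2.43, 3.74 and 4.65 with high salt and 10.7, 14.1 and 9.71 in the check (log2 change -1.46, SE 0.29, adjusted p = 0.028, and 0.016 after scaling). All 6 tested sigma factor loci had a negative log2 change. Chaperone dnaJ 20 (g96403) fell to 37.02, 69.3 and 61.1 with high salt, against 176, 245 and 181 in the check (log2 change -1.86, SE 0.31, adjusted p = 0.02, and 0.0096 after scaling). Leaving out high-salt replicate 1, 2 and 3 kept 0, 2 and 9 of the 11 loci called lower, and leaving out check replicate 1, 2 and 3 kept 0, 4 and 0, with adjusted p-values up to 0.16.

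Pigment, quinone and salvage enzymes followed. Phytoene synthase 2 (g26608), the entry to carotenoids, stood at 60.1, 122 and 108 with high salt and 252, 319.9 and 329 in the check (log2 change -1.68, SE 0.33, adjusted p = 0.028, and 0.021 after scaling). Phytoene desaturase (g8578) stood at 46.2, 61.3 and 40.2 with high salt and 119, 79.5 and 119 in the check (log2 change -1.09, SE 0.24, adjusted p = 0.039, and 0.016 after scaling). Prolycopene isomerase (g19716) fell to 7.50, 4.98 and 7.80 with high salt, against 22.4, 29.9 and 16 in the check (log2 change -1.59, SE 0.32, adjusted p = 0.029, and 0.017 after scaling). These were the 3 called loci of 26 in carotenoid and tocopherol synthesis, where 22 loci had a negative log2 change. Solanesyl-diphosphate synthase 2 (g8942), which builds the side chain of plastoquinone, stood at 70.4, 102 and 120.2 with high salt and 259, 218 and 271 in the check (log2 change -1.37, SE 0.26, adjusted p = 0.024, and 0.016 after scaling). In photorespiration, phosphoglycolate phosphatase 1B (g84345) fell to 83.2, 108 and 121 with high salt, against 243, 279.7 and 185 in the check (log2 change -1.17, SE 0.29, adjusted p = 0.048, and 0.029 after scaling). Ferredoxin-dependent glutamate synthase (g92307), which refixes photorespiratory ammonium, had a log2 change of -1.05 (adjusted p = 0.047). The medians of the lists, as log2 changes, were -0.87 for Rubisco and the Calvin cycle (32 loci), -0.56 for carotenoids and tocopherol (26), -0.53 for photosystem subunits (19) and -0.32 for photorespiration (40), all below the 0.29 of all tested loci. Light-harvesting proteins (28 loci) had no call in either direction and a median of 0.31. These lists held 1, 3, 0 and 1 loci called lower and 1, 0, 0 and 1 called higher as deposited, so the medians are a description. The photosystem list was drawn by name and does not hold the oxygen-evolving enhancer loci g24240 and g99724, which were called lower. Without high-salt replicate 1, 2 and 3, 0, 1 and 4 of the 6 called loci passed, and without check replicate 1, 2 and 3, 0, 3 and 0 did, the highest adjusted p being 0.16.

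**Figure D3:**
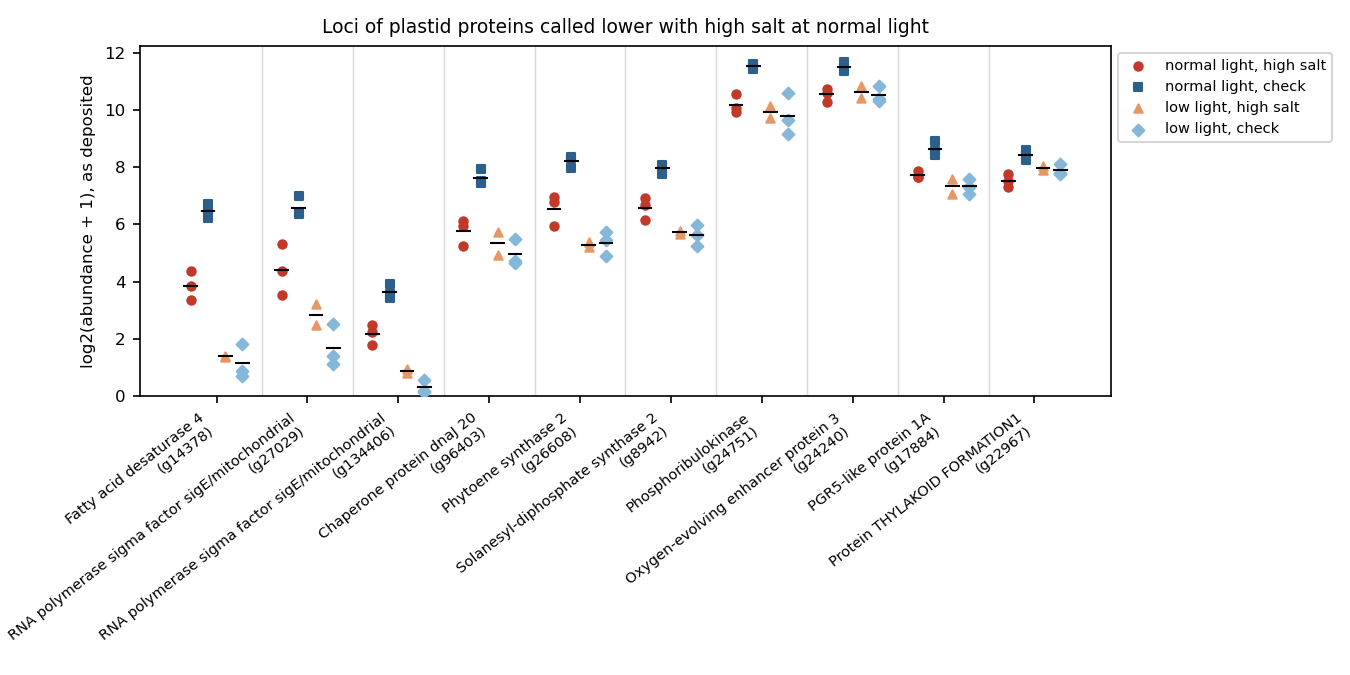
Log2(abundance + 1) as deposited for 10 loci of plastid proteins called lower with high salt at normal light, with 1 point per library and a bar at each group mean, for both treatments at both light levels. The normal-light check is the highest group in each locus, and each low-light library lies below each normal-light check library.

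At low light these plastid loci were low in the check too. Fatty acid desaturase 4 (g14378) stood at 1.61 and 1.66 with high salt and 0.848, 2.57 and 0.628 in the low-light check, and sigE g27029 at 4.54 and 8.31 with high salt and 1.62, 4.71 and 1.20 in the low-light check. Phosphoribulokinase (g24751) stood at 847 and 1139 with high salt and 1546, 809 and 566 in the low-light check. None of the 3 was called for high salt at low light (adjusted p = 0.99, 0.56 and 1) or for the interaction (adjusted p = 0.14, 0.072 and 0.22).

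Surface kinases gave several of the deepest decreases. Cysteine-rich receptor-like kinase 10 (g27266) was listed at 0 in the 3 high-salt libraries and stood at 21.4, 13.5 and 16.5 in the check (adjusted p = 1.1e-05, called in all 6 fits that left out 1 library). It stood at 0, 0.0255 and 0.0526 with low salt, at 0 and 0 with high salt at low light and at 0.0178, 0 and 0 in the low-light check. Of the 5 groups only the normal-light check held it above those traces. Another locus of that name, g19749, stood at 0.0719, 6.68 and 6.66 with high salt and 34.3, 49.8 and 18.9 in the check (log2 change -3.05, SE 0.73, adjusted p = 0.044, and 0.032 after scaling). Kinase 6 (g200) stood at 0.348, 16.1 and 15.4 with high salt and 88.9, 74.9 and 121 in the check (log2 change -3.70, SE 0.85, adjusted p = 0.041, and 0.031 after scaling). High-salt replicate 1 was the lowest in both. Also lower in the family were g23985 (log2 change -1.85, adjusted p = 0.023) and g9858 (-2.43, 0.036). These were the 5 called loci of 121, whose median log2 change was 0.18, and 0.963% of all tested loci were called lower. The kinase PIX13 (g17812) stood at 0.209, 0.183 and 13.9 with high salt and 158, 243 and 60.9 in the check (log2 change -5.59, SE 1.10, adjusted p = 0.027, and 0.021 after scaling). An LRR receptor-like kinase (g266) fell to 2.61, 2.77 and 0.0194 with high salt, against 21.7, 10.9 and 21.99 in the check (log2 change -2.94, SE 0.46, adjusted p = 0.017, and 0.011 after scaling). An Xa21-type kinase (g13448), named for a rice immune receptor, had a log2 change of -2.74 (adjusted p = 0.022). Among 625 NB-ARC resistance proteins, intracellular immune receptors, 6 were lower and 1 higher both ways, no larger a share than among all tested loci (0.963% lower and 0.744% higher). RGA1 g216 fell furthest, to 2.06, 0.948 and 1.56 with high salt, against 40.6, 30.4 and 24.1 in the check (log2 change -3.69, SE 0.43, adjusted p = 0.0062, and 0.0032 after scaling). The loci g19749, g17812 and g216 were 37.7%, 38.9% and 28.5% identical to the proteins they are named for, so these names are uncertain. The 9 called loci numbered 4, 4 and 8 without high-salt replicate 1, 2 and 3, and 2, 5 and 2 without check replicate 1, 2 and 3, with adjusted p-values up to 0.14.

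Beta-glucosidases, which release sugars from glycosides, had 4 of 43 loci lower both ways, beside 0.963% of all tested loci. As deposited 1 was called higher, and 27 of the 43 had a positive log2 change. The median of the list was 0.17, against 0.29 over all tested loci. Without high-salt replicate 3, 6 were called higher and 4 lower. Beta-glucosidase 3 g92910 stood at 2.96, 6.40 and 0.481 with high salt and 57.6, 42.6 and 86.5 in the check (log2 change -4.11, SE 0.53, adjusted p = 0.0082, and 0.0056 after scaling). The locus g91727 stood at 21.98, 11.6 and 24.6 with high salt and 79.6, 114 and 124 in the check (log2 change -2.43, SE 0.44, adjusted p = 0.022, and 0.011 after scaling). Beta-glucosidase 3 g96261 and beta-glucosidase 5 g21265 had log2 changes of -2.36 and -2.21 (adjusted p = 0.022 and 0.024). In each, every high-salt library lay below every check library. The check libraries had the same order in g91727, g96261 and g21265, which may share reads. At low light g92910 stood at 42.2 and 24.98 with high salt and 13.03, 33.3 and 11.98 in the check, the groups overlapping, and its interaction was -4.97 (log2, adjusted p = 0.028, called in 12 of 21 alternative settings, adjusted p 0.012 to 0.15). Loci for sugar transfer were called in both directions. The mannosyltransferase g19771 and KOBITO 1 g22267 were higher (log2 changes of 2.45 and 1.33), and among those that were lower were 7-deoxyloganetin glucosyltransferase g26911 with a log2 change of -2.64 (adjusted p = 0.043) and UDP-glycosyltransferase 73C6 g9097 with -2.39 (adjusted p = 0.047). Of the 8 loci called as deposited, 1, 3 and 7 were called without high-salt replicate 1, 2 and 3, and 1, 6 and 0 without check replicate 1, 2 and 3, at adjusted p-values up to 0.16.

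Some regulators of growth and turnover were among the lower loci. Cytochrome P450 85A1 (g17414), which makes brassinosteroids, and P450 734A1 (g13181), which inactivates them in Arabidopsis, were both lower. The locus g17414 stood at 0.768, 1.42 and 1.32 with high salt and 8.58, 8.15 and 6.80 in the check (log2 change -2.04, SE 0.37, adjusted p = 0.022, and 0.015 after scaling). The locus g13181 stood at 15.4, 18.6 and 19.4 with high salt and 46.2, 44.01 and 53.1 in the check (log2 change -1.38, SE 0.25, adjusted p = 0.022, and 0.011 after scaling). No high-salt library reached the check in either. UNE10, a bHLH factor known in Arabidopsis as a relative of the phytochrome-interacting factors, had both its loci lower, g2673 at 30.4, 37.97 and 25.7 with high salt and 95.9, 69.5 and 111 in the check (log2 change -1.51, SE 0.31, adjusted p = 0.029, and 0.023 after scaling). The other, g23391, had a log2 change of -1.52 (adjusted p = 0.04). SCD2 (g1957), needed for stomatal cytokinesis in Arabidopsis, fell to 6.88, 4.95 and 7.51 with high salt, against 26.2, 35.6 and 19.4 in the check (log2 change -1.89, SE 0.25, adjusted p = 0.0082, and 0.0025 after scaling). It was called in all 6 fits that left out 1 library. The ubiquitin ligase RGLG2 (g14835) fell to 221, 316 and 327 with high salt, against 906, 858 and 1111 in the check (log2 change -1.75, SE 0.33, adjusted p = 0.026, and 0.017 after scaling). The list of 548 ubiquitin conjugation loci had 10 called higher and 5 lower as deposited, and 1 and 5 both ways. As deposited 2.74% of them were called, beside 3.94% of all tested loci. Of 59 proteasome loci 1 was called higher and 0 lower. Polyubiquitin, the source of the ubiquitin tag, had 30 loci, of which 3 were lower both ways, beside 0.963% of all tested loci. A positive log2 change was seen in 18 of the 30, whose median was 0.11, against 0.29 over all tested loci. The locus g83112 stood at 13.2, 11.9 and 19.6 with high salt and 39.2, 40.3 and 44.1 in the check (log2 change -1.44, SE 0.22, adjusted p = 0.016, and 0.0031 after scaling). The locus g82155 had a log2 change of -1.30 (adjusted p = 0.018) and g86732 one of -0.80 (0.046). Polyubiquitin copies are near identical, so the split of reads between them is uncertain. Among transcription factors, NAC35 g13040 was lower (log2 change -1.29, adjusted p = 0.028). ERF117 g24417 stood at 175, 164 and 135 with high salt and 48.4, 73.5 and 55.99 in the check (log2 change 1.41, SE 0.24, adjusted p = 0.02, and 0.043 after scaling). The histone-fold subunit NF-YB3 g8202 stood at 36.98, 17.8 and 15.1 with high salt and 4.04, 5.58 and 4.02 in the check (log2 change 2.04, SE 0.31, adjusted p = 0.016, and 0.02 after scaling), both higher. The cell cycle repressor retinoblastoma-related protein 1 (g9895) rose to 9.45, 8.87 and 10.9 with high salt, against 2.83, 3.57 and 3.08 in the check (log2 change 1.37, SE 0.22, adjusted p = 0.017, and 0.016 after scaling). Leaving out high-salt replicate 1, 2 and 3 kept 2, 4 and 11 of the 13 called loci, and leaving out check replicate 1, 2 and 3 kept 1, 10 and 1, with adjusted p-values up to 0.14.

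Across the remaining gene lists, hormone and signalling loci were called at shares on both sides of the 3.94% of all tested loci called as deposited. The shares were 1.79% for auxin, 1.68% for calcium signalling, 3.7% for cytokinin, 4.17% for jasmonate and 6.45% for mitogen-activated protein kinases. Several of them rested on 1 call. In auxin signalling 1 of 56 loci was called, the repressor IAA15 (g18352), at 23.7, 25.9 and 11.4 with high salt and 7.22, 8.38 and 6.49 in the check. In jasmonate synthesis 1 of 24 was, allene oxide cyclase 3 (g92319), at 34.5, 30.6 and 12.4 with high salt and 7.14, 6.30 and 7.73 in the check. Both were called as deposited only (adjusted p = 0.047 and 0.042, 0.13 and 0.1 after scaling). The cytokinin response regulator ORR4 (g134575), 1 of 27, fell to 8.21, 8.71 and 5.14 with high salt, against 19.2, 15.7 and 13.1 in the check (log2 change -1.04, SE 0.25, adjusted p = 0.044, and 0.03 after scaling). Among 31 mitogen-activated protein kinase loci of all tiers, 1 was called higher as deposited only and 1 lower both ways. The lower one, kinase kinase 2 (g23751), fell to 6.05, 5.60 and 6.21 with high salt, against 19.3, 17.1 and 14.9 in the check (log2 change -1.37, SE 0.24, adjusted p = 0.022, and 0.0077 after scaling). In these 4 named loci the groups did not overlap. Calcium signalling had 2 of 119 loci called higher, as deposited only, and the gibberellin (19 loci) and ethylene (13) lists had no call. Respiratory burst oxidase B (g92222), which makes superoxide at the cell surface, was the called member of 7 (log2 change 1.83, adjusted p = 0.022). The abundant abscisic acid loci were not called. NCED1 g1770, 87.1% identical to the named protein, stood at 399, 324 and 909.7 with high salt and 651, 983 and 769 in the check, overlapping (adjusted p = 0.39). Zeaxanthin epoxidase g833 stood at 208, 250.4 and 243 with high salt and 348, 360.3 and 349 in the check, without overlap (adjusted p = 0.23). The lists of WRKY, bHLH and heat stress factors, with 29, 47 and 12 loci, had no call as deposited. The bHLH list was drawn by name and does not hold the UNE10 loci, which were called lower. The counts that follow stand beside 2.98% of all tested loci called higher as deposited and 0.744% after scaling. MYB factors had 4 of 43 called higher, among them MYBAS1 g7996 at 75.5, 58.3 and 71.1 with high salt and 21.1, 34.3 and 16.6 in the check (adjusted p = 0.033, and 0.057 after scaling). Clock loci had 2 of 25, among them GIGANTEA g98846 (log2 change 0.83, adjusted p = 0.045, and 0.18 after scaling). Plastid ribosomal proteins had 7 of 55 called higher, 3 also after scaling, with L24 g84759 at 22.8, 25.6 and 21.1 with high salt and 9.17, 9.76 and 10.96 in the check (log2 change 1.14, SE 0.17, adjusted p = 0.016, and 0.036 after scaling). The motor protein locus KIN-10A g18976 fell to near 0, at 0, 0 and 0.0645 with high salt and 4.61, 1.21 and 3.84 in the check (log2 change -1.94, SE 0.31, adjusted p = 0.017, and 0.012 after scaling). Glutathione S-transferases (35 loci), sugar transporters (42) and aquaporins (6) had no call, at medians of 0.48, 0.05 and 0.16. Without high-salt replicate 1, 2 and 3, 0, 2 and 8 of the 9 called loci passed, and without check replicate 1, 2 and 3, 0, 5 and 0 did, the highest adjusted p being 0.17.

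**Figure D4:**
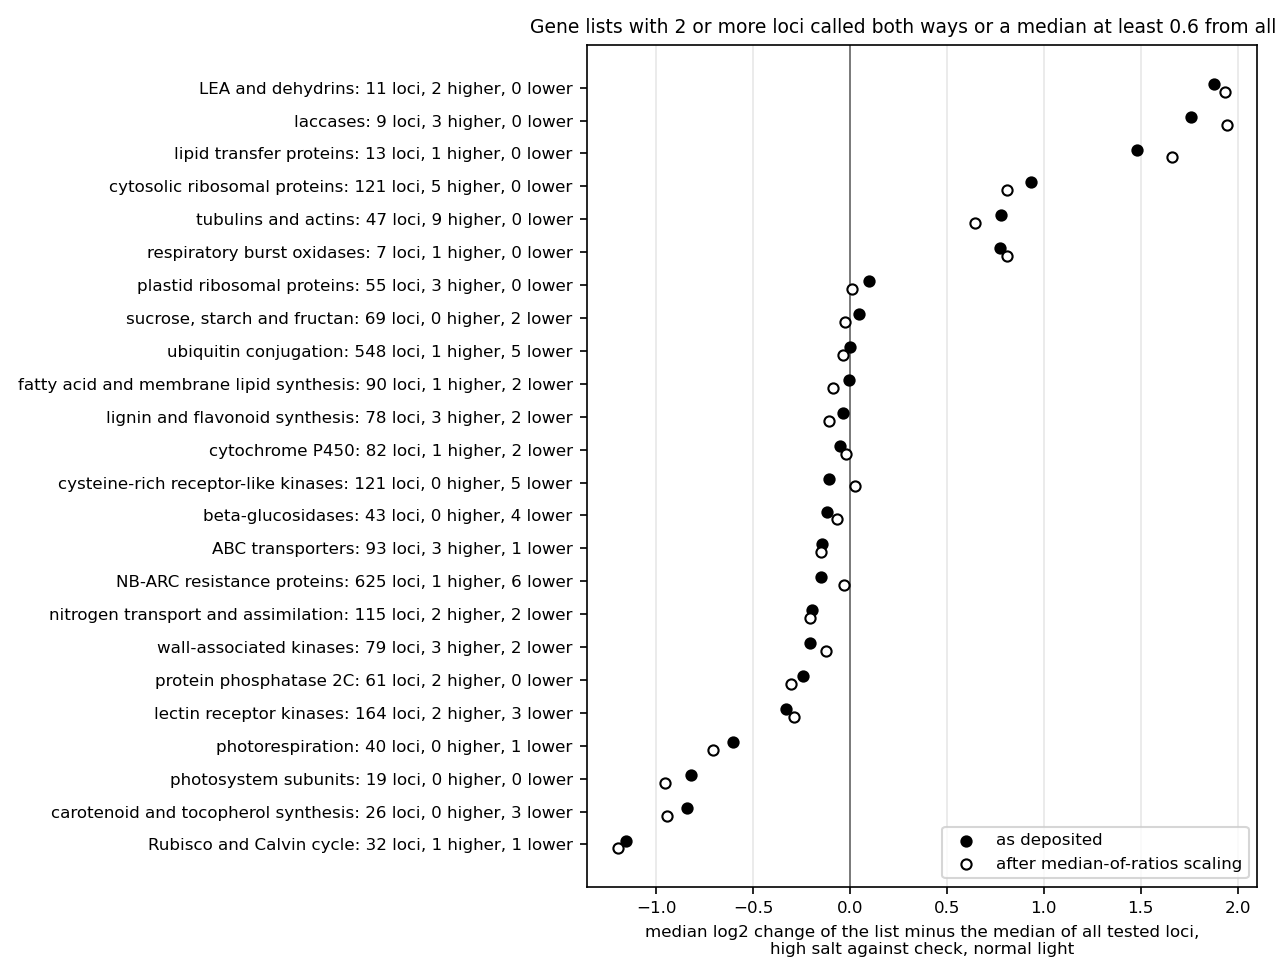
Median log2 change with high salt minus the median of all tested loci for 24 of the 72 gene lists, those with 2 or more loci called both ways or a median at least 0.6 from that of all loci, as deposited (filled) and after scaling (open), with the number of loci called both ways beside each name. LEA proteins, laccases and lipid transfer proteins lie furthest above the line, and photosystem subunits, carotenoid synthesis and the Calvin cycle furthest below it, while the cysteine-rich receptor-like kinases lie near it.

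Set against high salt at low light, which used other libraries, the loci called higher at normal light kept their direction in part. There 118 loci were called among all 20567, 0.554% higher and 0.0194% lower. Of the 122 higher loci 83 also had a positive log2 change at low light, with a median of 0.15, beside 6111 of 12537 annotated loci and a median of -0.004. Of the 122 only glucomannan 4-beta-mannosyltransferase 1 (g19771) was called there, at 17.7 and 7.05 with high salt and 0.486, 0 and 2.04 in the low-light check (log2 change 2.89, adjusted p = 0.041). The cleavage dioxygenase g1357 stood at 581 and 635 with high salt and 67.8, 241 and 73.4 in the low-light check without being called (log2 change 2.50, adjusted p = 0.21). Barwin g94414 and the LEA protein g17554 had log2 changes of 1.83 and 1.79 there (adjusted p = 0.2 and 0.28), beside 2.44 and 2.40 at normal light. Of the 113 lower loci 61 had a negative log2 change at low light, with a median of -0.02, and none was called. This lay near the share and median of all annotated loci, of which 6111 of 12537 were positive, with a median of -0.004. With 2 high-salt libraries at low light, that comparison is less precise, and a locus called at one light level is not thereby shown to differ between them. The interaction itself was called for 5 of the 122 higher loci, beside 0.034% of all tested loci in that direction, and 2 of the 113 lower ones, beside 0.175%. These were the 4 tubulins and g23045 above, and below 0 g92910 and g27266.

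**Figure D5:**
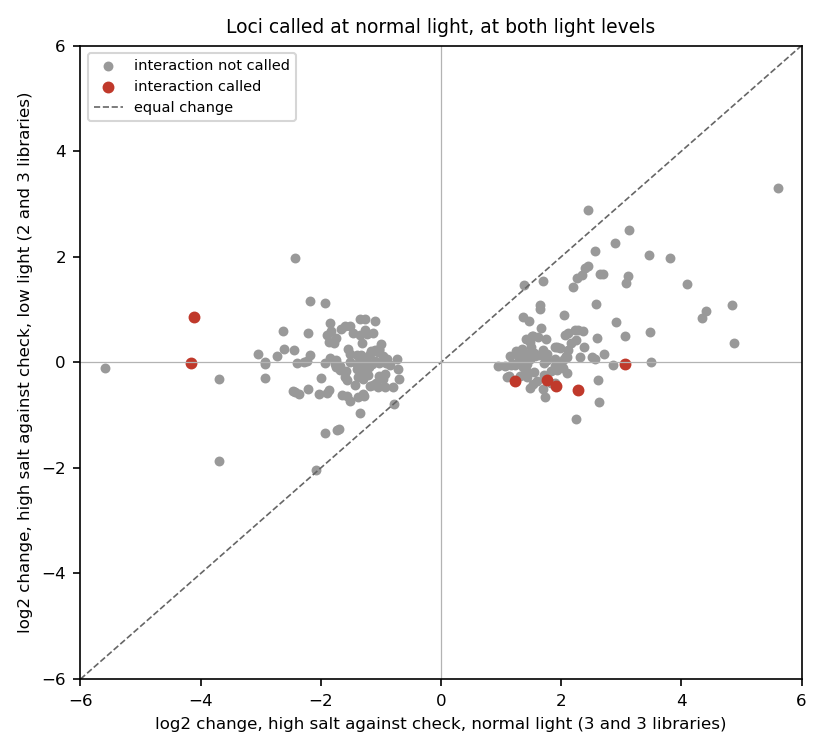
Log2 change with high salt at normal light (horizontal axis) and at low light (vertical axis) for the 235 loci called both ways at normal light, 1 point per locus, with the 7 loci whose interaction was called in red. Most points lie near a low-light change of 0, with a tail of higher loci towards the dashed line of equal change.

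Low salt at normal light shares the check libraries with the comparison above, so the 3 levels are given side by side for loci that turn on it. Tubulin beta-5 g13742 stood at 17.5, 13.2 and 9.98 in the check, 26.8, 58.5 and 50.2 with low salt and 117, 91.2 and 153 with high salt. Laccase-13 g27393 stood at 0.15, 0 and 0.673 in the check, 3.23, 2.75 and 3.75 with low salt and 89.7, 38.6 and 11.6 with high salt. The low-salt libraries of both lay between the other groups without reaching the high-salt ones. The cleavage dioxygenase g1357 stood at 65.9, 179 and 47.5 in the check, 398, 328 and 1080.0 with low salt and 729.6, 478 and 1122 with high salt, the salt groups overlapping. Phytoene synthase 2 g26608 stood at 252, 319.9 and 329 in the check, 112, 94.7 and 52.5 with low salt and 60.1, 122 and 108 with high salt, again overlapping. The test of high against low salt called 10 of all tested loci (0.0486%), 0.00972% higher and 0.0389% lower. Of the 235 it called 1 higher and 2 lower. Phosphoglycerate mutase g26785 was higher with high than with low salt (log2 2.51, adjusted p = 0.016), standing at 0.0838, 0.206 and 0.0805 in the check, 0.323, 0.511 and 0.656 with low salt and 6.05, 5.42 and 12.5 with high salt. Polyubiquitin g86732 was lower with high than with low salt (log2 -1.81, adjusted p = 0.009), at 16.1, 17.4 and 17.3 in the check, 41.4, 29.1 and 35.97 with low salt and 9.98, 9.30 and 8.63 with high salt. There low salt lay above the check and high salt below it. Polyubiquitin g82155 was lower as well (log2 -1.44, adjusted p = 0.044). For the other loci of the 235 the difference between the salt levels was not detectable with 3 libraries each.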

How the data were processed

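Total RNA of sheepgrass leaves was sequenced in 14 libraries, of which the 3 high-salt and 3 check libraries at normal light form the main comparison. The authors deposited 1 table of abundances per assembled transcript, with a best database hit for each. The authors made this expression signal per transcript and library before deposit, by steps that are not given in the sources used here beyond the tools below. Neither the file header nor the labels name its unit. They are not whole numbers, so depth is unknown and no count test or counting interval was possible. The submitters' processing notes name Bowtie 0.12.2, HISAT2 2.0, StringTie 1.3.0 and the mouse build mm8, without saying what each was used for, and the extraction text in the labels speaks of rice leaves. The table ends at a row limit of 65535 lines below the header. From these, 4 broken lines and the 17 transcripts of 3 loci cut at the edges were left out, and transcripts were summed to 29560 loci. Other transcripts were not analysed here.

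A filter kept the 20567 loci that reached 1 in 2 or more libraries. The test was limma 3.58.1 (R 4.3.3) on values logged to base 2 after adding 1, with trended and robust variance estimates over all 5 groups and Benjamini-Hochberg adjustment over all tested loci. A locus was called at an adjusted p under 0.05. Fold changes on this scale understate the change of low loci. Median-of-ratios scaling used the 15772 loci above 0 in every library. Tables and plots were made with Python 3.11.15, pandas 2.3.3, numpy 2.4.6 and matplotlib 3.10.9. The test was checked on simulated data: it missed most loci given a small change, and its share of false calls was above the nominal one.

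Loci and lists were chosen with earlier results of these data known. By rule the text names the 12 highest and 12 lowest annotated loci called both ways without overlap at a mean of 5 or more, the called member of each list with the smallest p-value (or its most abundant member) and the 3 most abundant members of the transport, pump, osmolyte and abscisic acid lists. It leaves out some list members that the rule also names. Alternatives were other scalings, filters and pseudocounts, a fit of only the groups compared, a replicate block, the most abundant transcript per locus, and each library left out in turn.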

Additional observations from a re-analysis of the deposited data

Results flagged for a closer look

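The effect of high salt differed between the light levels for 7 of the 235 loci called both ways, by the test of the interaction. The interaction is the log2 change at normal light minus that at low light, and it shares the normal-light libraries by which the 235 were chosen. It was 3.10 for tubulin beta-5 g13742, 2.79 for tubulin alpha g86493, 2.37 for g82375 and 2.10 for g81447. For the beta subunit of pyrophosphate-fructose 6-phosphate 1-phosphotransferase (g23045) it was 1.58, for beta-glucosidase 3 (g92910) -4.97 and for the cysteine-rich receptor-like kinase 10 locus g27266 -4.15. The value for g27266 rests on groups listed at or near 0 and depends on the pseudocount.

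Loci with a fungal best hit, which are among all tested loci but in no gene list and not among the named loci, had a mean summed abundance of 495 with high salt and 209 in the check, with 1 of 194 tested loci called higher and 358 of 968 listed at 0 in all 6 libraries.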

How the results depend on the processing

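The number of called loci depended on the settings, and the balance of calls turned with the scaling. None of the 149 loci named by identifier changed the sign of its log2 change. Since 136 of them were called as deposited, that was largely fixed beforehand. Of the 136, 104 lost their call in a fit of only the groups compared, 32 with no filter on low values, 30 with the most abundant transcript per locus and 12 after median-of-ratios scaling. Among all tested loci, high salt at normal light raised 613 and lowered 198, against 153 and 412 after median-of-ratios scaling. The counts of higher loci were 1113 after scaling by library totals, 260 with no filter on low values, 98 in a fit of only the groups compared and 303 with a replicate block. The counts of lower loci were 106 with no filter, 32 with only the groups compared and 105 with the block. Leaving out 1 library gave 8 to 877 higher and 8 to 262 lower. High against low salt called 10, and 0 with only the groups compared (1817 at an unadjusted p under 0.05 in limma), 19 with the block, 17 with the most abundant transcript per locus and 3 to 222 without 1 library. High salt at low light called 118, and 15 with a filter of 5, 259 with no filter, 69 with a pseudocount of 0.1, 0 with only the groups compared (1339 at an unadjusted p under 0.05), 76 with the block and 58 to 163 without 1 library. The interaction called 43, and 0 with a filter of 5 (2059 at an unadjusted p under 0.05), 132 with no filter, 9 with a pseudocount of 0.1, 23 with the block, 86 with the most abundant transcript and 23 to 157 without 1 library. The cause of these shifts was not tested. Deviations of same-numbered high-salt and check libraries at normal light had correlations of 0.046, -0.046 and 0.058. Differently numbered ones had correlations of -0.095 to 0.061. Values near 0 over so few libraries cannot tell whether the numbers pair the samples. The most abundant transcript per locus was chosen as an alternative after seeing the data. With the unit unnamed and 3 libraries a group, differences near the spread of these libraries were not detectable.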
